A study of Mus musculus with 44 samples.

Results

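The vehicle small intestine and the vehicle brain of the same mice were compared, gene by gene, to describe how the 2 tissues differ when no manganese had been given. The libraries were taken by their labels, as all those of the vehicle group from small intestine and from brain, and were joined by the animal number at the start of each title. They were 14 of the 44 libraries of the series, 7 from each tissue, from 7 animals (3 female and 4 male). All animals were C57BL/6J mice, an inbred laboratory strain, at about 2 months of age. Each library was made from a total homogenate, so that its levels mix the cell types of the piece taken. The labels name no brain region and no segment of the intestine. The labels call the control treatment vehicle and say no more of it. The rest of the series, brain, liver and small intestine of mice given manganese chloride at about 50 mg per kg each day, and the liver of the vehicle animals, was used only where it bears on a result below. RNA was measured by 3′ TagSeq, which reads the 3′ ends of polyadenylated transcripts.

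The small intestine is lined by a single layer of epithelial cells that digest and absorb food. Absorptive enterocytes carry a brush border of microvilli loaded with hydrolases and transporters, goblet cells release mucus, Paneth cells release antimicrobial peptides at the base of the crypts, and stem cells in the crypts divide to renew the layer. The wall beneath holds immune cells, smooth muscle and a nerve network of its own. The brain is built of neurons, which signal through synapses, and of glia: oligodendrocytes that make myelin, astrocytes that clear transmitters and hold ions in balance, and microglia, its resident macrophages.

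Brain libraries held 1907393 to 2787449 reads assigned to genes and small intestine libraries 2177396 to 2945552. Levels are given in CPM, the reads of a gene per 1000000 reads assigned in its library, scaled by TMM, a method that adjusts for a few very abundant genes, and with the SD over 7 libraries. Differences are log2, small intestine minus brain, with their standard error (SE), so that a positive value means higher in small intestine. A gene was called where the adjusted p was below 0.05 in edgeR's quasi-likelihood test, with the animal as a block, and the fold was at least 2. In homogenates, fewer cells of a type and less RNA per cell cannot be told apart. In the names of the deposited count files, the sequencing sample numbers (S followed by digits) of the vehicle brains and of the vehicle small intestines form separate runs, and any batch tied to those runs and the tissue cannot be told apart.

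Several libraries held transcripts of a neighbouring or another organ. In small intestine of animal 2627, 9 tested genes of the exocrine pancreas were high: all pancreatic acinar genes summed to 17581 CPM there and to 237 to 451 CPM in the other 6. In brain of animal 2572, pituitary hormone genes summed to 20567 CPM, in brain of animal 2573 to 1831 CPM and in the other 5 brains to 110 to 327 CPM. Neuron markers summed to 9441 to 10065 CPM in brain and to 318 and 327 CPM in small intestine of animals 2627 and 2630, against 105 to 162 CPM in small intestine of the other 5. The same sum was 323 and 394 CPM in the liver of animals 2627 and 2630 and 92.7 to 129 CPM in the liver of the other 5, so that low levels of neuronal transcripts were present in both other organs of the same 2 animals. Hepatocyte markers, some of which enterocytes and the choroid plexus also make, summed to 73020 to 98071 CPM in vehicle liver, to 880 to 1825 CPM in small intestine and to 33.6 to 508 CPM in brain. The part of these transcripts in the results was not tested; differences without animals 2627 and 2630 are given where leaving them out moved the fold of a brain gene whose levels are described by over 1.5 times and the gene had over 3 counts in small intestine.

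**Figure D1:**
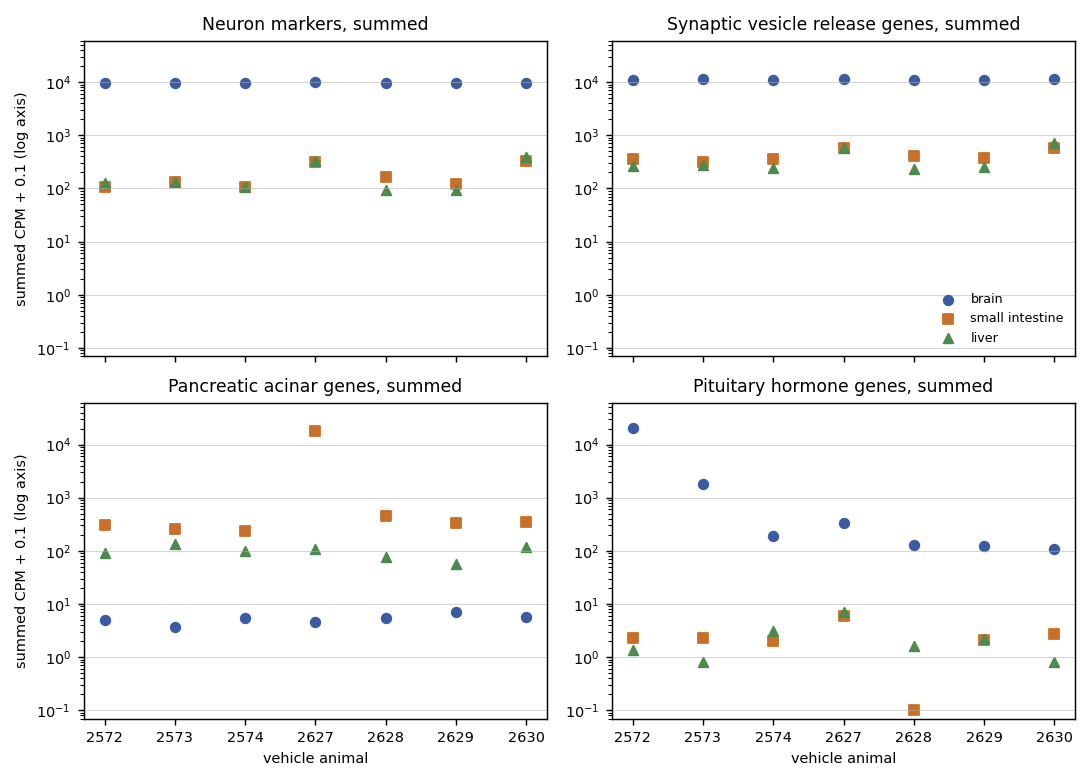
Summed CPM (vertical log axis, with 0.1 added) of 4 gene lists in each vehicle animal (horizontal axis), in brain (blue circles), small intestine (orange squares) and liver (green triangles). The 2 upper panels show neuronal sums raised in small intestine and liver of animals 2627 and 2630, the lower left panel the pancreatic sum of 17581 CPM in small intestine of animal 2627, and the lower right panel the pituitary sum of 20567 CPM in brain of animal 2572.

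Of 13636 genes tested, 3725 (27.3%) were called higher in small intestine and 4013 (29.4%) higher in brain, and 5898 were not called. Genes called for small intestine made up 52.2% ± 0.696 of the reads assigned to genes in small intestine and 9.04% ± 0.22 in brain (SD, n = 7), and genes called for brain made up 43.2% ± 0.763 of the reads in brain and 4.93% ± 0.492 in small intestine. The 7 levels of one tissue all lay above the 7 of the other for 4852 genes in favour of small intestine and 4811 in favour of brain. The median difference over all genes tested was 0.03. Scaling by library totals alone moved that median to −0.29, and the calls to 3124 higher in small intestine and 4703 higher in brain, so small differences below are relative to the TMM scale.

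The 2 directions differed in how far they reached. Among 1326 genes called for small intestine with at least 100 CPM there, 273 (20.6%) had a log2 difference of 7 or more. Among 1045 genes called for brain with at least 100 CPM there, 16 (1.53%) had a difference of −7 or beyond, while 392 (37.5%) lay between −5 and −7. The levels behind this were about 0 to 1 CPM in brain for intestinal genes. In small intestine, neuronal genes were at a few CPM, highest in animals 2627 and 2630. Over the 1045 brain genes, the median difference was −4.035 with 7 animals and −4.127 without those 2 animals. The 4 hypothalamic hormone genes named next, chosen after their values were seen (Hcrt, Pmch, Oxt and Avp), summed in small intestine to 1.91% and 3.61% of the level in brain of the same animal in 2627 and 2630, and to 0.146% to 0.471% in the other 5 animals.

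**Figure D2:**
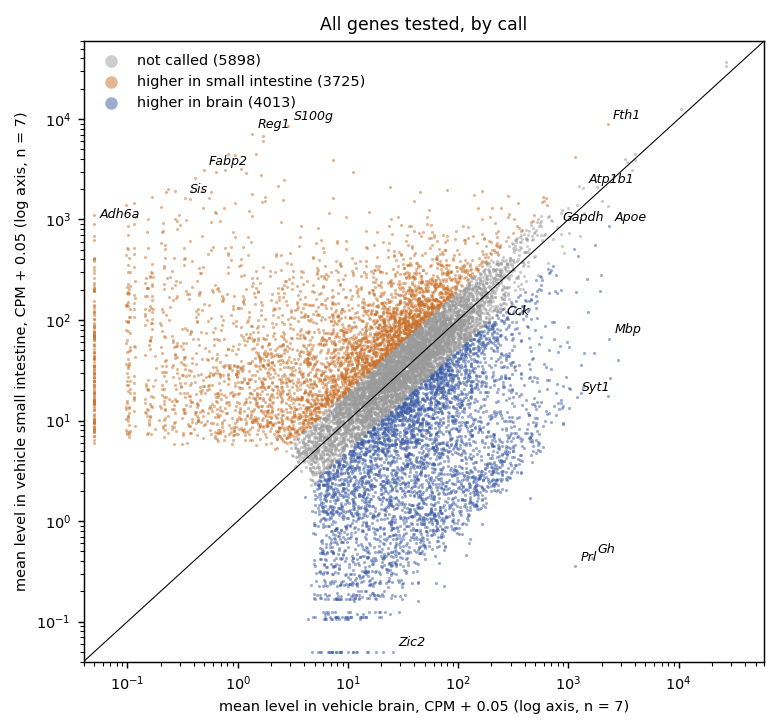
Mean level of each of the 13636 genes tested in vehicle brain (horizontal log axis, CPM with 0.05 added) and vehicle small intestine (vertical log axis, same unit), n = 7 each, with genes called higher in small intestine in orange (3725), higher in brain in blue (4013) and not called in grey (5898). Intestinal genes reach the left edge, where brain held no count. Of 1045 genes called for brain with at least 100 CPM there, 16 had a log2 difference of −7 or beyond.

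The enzymes, structure and carriers of the digestive surface were among the intestinal genes with wide differences. Of 17 tested brush border hydrolases, the enzymes that finish digestion on the cell surface, 17 were higher in small intestine, with a median log2 difference of 8.07. Sis, the sucrase-isomaltase that splits table sugar and starch ends, was at 1168, 1375 and 2172 CPM (lowest, median and highest) in small intestine and at 0, 0.327 and 0.896 CPM in brain. The groups did not overlap for Sis, and its difference was 12.31 (SE 0.20, adjusted p = 1.3e-17). Mgam, the maltase-glucoamylase, was at 1904 ± 281 CPM in small intestine and 0.426 ± 0.26 CPM in brain, a difference of 11.95 (SE 0.16). Alpi, the intestinal alkaline phosphatase, differed by 12.15 (SE 0.21). Mep1b, a meprin metalloprotease, had no count in any brain library and was at least 3093-fold higher in small intestine, with 3 counts over the group as the floor. The smallest difference in the list was that of the cytosolic dipeptidase Cndp2, at 98.2 ± 20.1 CPM in small intestine and 35.2 ± 2.77 CPM in brain (1.47, SE 0.10).

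The structure that carries these enzymes followed. All 16 tested microvillus and epithelial cytoskeleton genes were higher in small intestine, with a median of 8.43. Vil1, the actin-bundling protein villin, stood at 1576 ± 132 CPM in small intestine and 2.53 ± 0.657 CPM in brain (9.24, SE 0.14). Cdhr2 and Cdhr5, the protocadherins that tie microvilli to one another, were at 1203 ± 138 and 901 ± 118 CPM in small intestine, and Cdhr5 gave 1 count over all 7 brain libraries. Eps8, an actin regulator also found in neurons, differed least, at 330 ± 39.6 against 64.8 ± 3.56 CPM.

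Of 21 tested nutrient and ion transporters of enterocytes, 20 were higher in small intestine and 1 in brain, with a median of 8.80 (8.76 with genes at 0 in brain set to their bound). Slc5a1, the sodium-coupled glucose carrier, was at 1564, 1866 and 2362 CPM in small intestine and 0, 0.448 and 1.09 CPM in brain. No brain library approached any intestinal one, and the difference was 11.63 (SE 0.16, adjusted p = 7.6e-18). Slc6a19, which takes up neutral amino acids, was at 442 ± 51 against 0.771 ± 0.312 CPM. The member on the other side was Slc1a1, the neuronal and epithelial carrier of glutamate and aspartate, at 81.2 ± 8.81 CPM in brain and 21.9 ± 5.24 CPM in small intestine (−1.89, SE 0.13).

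All 23 tested genes of fat absorption and chylomicron assembly were higher in small intestine, with a median of 8.65 (7.43 with genes at 0 in brain set to their bound). Apoa4, an apolipoprotein of chylomicrons, ranged from 3514 to 5743 CPM (median 4284) in small intestine and from 0.381 to 4 CPM (median 1.01) in brain. The difference was 11.54 (SE 0.21, adjusted p = 4.1e-17). Fabp2, the intestinal fatty acid binding protein, stood at 3074 ± 471 against 0.442 ± 0.463 CPM (12.62, SE 0.20). Mttp, which loads lipid onto apolipoprotein B, was at 1055 ± 117 against 9.57 ± 2.01 CPM, and Dgat1, which makes triglyceride, at 859 ± 55.3 against 37.1 ± 4.7 CPM. Among vitamin genes, 8 of 9 tested were higher in small intestine. S100g, the calcium-binding protein calbindin-D9k of vitamin D dependent calcium uptake, reached 8598 ± 1053 CPM in small intestine, one of the 10 highest levels there, and 2.82 ± 2.77 CPM in brain. Rbp2, the intestinal retinol-binding protein, was at 3123 ± 336 against 0.714 ± 0.431 CPM. Enzymes and transporters that handle drugs and other foreign compounds were higher in small intestine for 23 of 24 tested genes, with a median of 10.58 (10.20 with bounds). Cyp3a11, a cytochrome P450, stood at 956 ± 128 against 0.638 ± 0.772 CPM, and the glutathione transferase Gstm1 was the member not called (248 ± 91 against 172 ± 14 CPM).

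Regulators of the epithelium stood on the same side. Of 25 tested intestinal transcription factors, 23 were higher in small intestine and none in brain, with a median of 8.93 (8.16 with bounds). Hnf4a, a nuclear receptor of enterocytes and hepatocytes, was at 515 ± 48.8 CPM in small intestine and gave 1 count over all brain libraries, a ratio of 9459 with a 95% counting interval from 1697 to 373638. Cdx1, a caudal-type homeobox factor of the intestinal epithelium, was at 67.6 ± 9.51 CPM against 0.171 ± 0.214 CPM, and Klf5, a factor of dividing crypt cells, at 388 ± 19.2 against 7.82 ± 1.29 CPM. Not called were Sox9 (30.6 ± 8.81 in small intestine and 45.8 ± 5.34 CPM in brain), a factor of crypt cells that astrocytes also make, and Tcf7l2 (220 ± 47.6 and 349 ± 19.5 CPM), the partner of beta-catenin.

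The 5 promoters that follow show the sequence around the start of genes of either side, and were chosen after values and sequences were seen. They come from RefSeq on GRCm38.p6, not the GRCm39 build of the counts, and each runs 5′ to 3′ on the gene's strand from 250 bases before the start to 50 bases after it, with capitals marking a motif match. TTTATG is a site that CDX factors bind in vitro and in the Sis promoter, CAAAGTCCA and CAAAGTTCA are sites of the HNF4 type, TTCAGCACC is the left part of the element bound by REST, a repressor of neuronal genes in other cells, and TATAAA is the TATA box.
Sis, chr3:72967814-72968113, minus strand, TTTATG 43 bases before the start: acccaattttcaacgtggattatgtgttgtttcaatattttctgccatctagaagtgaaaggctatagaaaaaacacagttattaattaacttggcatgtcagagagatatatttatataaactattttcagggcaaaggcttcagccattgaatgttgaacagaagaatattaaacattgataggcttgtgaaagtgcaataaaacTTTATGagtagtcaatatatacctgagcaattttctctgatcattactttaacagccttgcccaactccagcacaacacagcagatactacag
Apoa4, chr9:46240594-46240893, plus strand, CAAAGTTCA 182 bases before the start: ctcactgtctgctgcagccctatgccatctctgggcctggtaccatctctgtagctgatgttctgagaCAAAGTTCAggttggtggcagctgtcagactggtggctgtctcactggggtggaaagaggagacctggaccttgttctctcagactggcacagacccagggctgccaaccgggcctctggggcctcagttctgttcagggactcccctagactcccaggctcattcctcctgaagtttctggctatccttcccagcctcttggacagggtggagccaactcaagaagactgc
Alpi, chr1:87101557-87101856, minus strand, CAAAGTCCA 19 bases before the start: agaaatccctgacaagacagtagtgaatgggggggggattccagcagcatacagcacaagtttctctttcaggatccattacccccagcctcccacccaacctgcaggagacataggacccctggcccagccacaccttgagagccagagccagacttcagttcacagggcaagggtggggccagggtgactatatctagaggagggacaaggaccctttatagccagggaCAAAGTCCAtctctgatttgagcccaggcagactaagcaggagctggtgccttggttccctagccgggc
Syn1, chrX:20920869-20921168, minus strand, TTCAGCACC 232 bases before the start: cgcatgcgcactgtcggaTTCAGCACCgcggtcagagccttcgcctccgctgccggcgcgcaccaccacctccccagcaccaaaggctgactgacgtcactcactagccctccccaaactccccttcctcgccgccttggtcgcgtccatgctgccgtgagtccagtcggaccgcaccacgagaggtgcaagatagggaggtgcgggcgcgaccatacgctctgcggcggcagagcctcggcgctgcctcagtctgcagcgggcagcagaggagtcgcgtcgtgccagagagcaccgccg
Elavl3, chr9:22051974-22052273, minus strand, TATAAA 33 bases before the start: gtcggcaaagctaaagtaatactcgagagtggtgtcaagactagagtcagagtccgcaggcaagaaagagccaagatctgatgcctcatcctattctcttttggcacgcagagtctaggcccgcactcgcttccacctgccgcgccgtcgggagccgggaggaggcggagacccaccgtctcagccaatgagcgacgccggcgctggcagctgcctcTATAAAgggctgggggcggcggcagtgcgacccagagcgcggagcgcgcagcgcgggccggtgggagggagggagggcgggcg

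The 3 intestinal promoters hold 1 CpG each, and those of the neuronal genes Syn1 and Elavl3 hold 33 and 29. Promoters were found by symbol for 10567 of the genes tested, and their median CpG count was 20, against 7 over all 27025 promoters of the table. The median was 4 in 255 genes with a log2 difference of at least 8 for small intestine and 15 in 758 genes with −5 or beyond for brain. A TATA box starting 40 to 20 bases before the start stood in 10.6% of the 255, in 1.72% of the 758, in 1.38% of the 10567 and in 2.22% of all 27025. TTTATG, on either strand, stood in 18.4%, 7.52%, 6.51% and 12.1% of the same sets, and an HNF4 site in 7.45%, 0.792%, 0.871% and 0.862%. The left part of the REST element stood in 0% of the 255 and 1.06% of the 758, against 0.407% of the genes tested and 0.359% of all promoters. A match describes the letters in the window only, and no binding was measured.

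Paneth cell, antimicrobial and most goblet cell genes differed in the same direction. The first list joins Paneth cell markers with other antimicrobial genes, and the cell type that made each transcript was not measured. All 15 tested Paneth cell and antimicrobial genes were higher in small intestine, with a median of 12.31. Reg1, a secreted C-type lectin, reached 6121, 7125 and 8069 CPM in small intestine against 0, 1.14 and 2.91 CPM in brain, without overlap. Lyz1, the Paneth cell lysozyme, was at 1446 ± 333 CPM and gave 1 count over the brain libraries, a ratio of 26370 with a counting interval from 4732 to 1041593. The antimicrobial lectin Reg3g varied widely among intestines, from 212 to 3333 CPM with a median of 1553 CPM. Defensin genes such as Defa24 (4480 ± 1351 CPM) are near-identical copies, and reads that map to several of them were not counted, so their levels are uncertain.

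Of 12 tested goblet cell markers, 9 were higher in small intestine and 2 in brain, with a median of 10.96 (10.56 with bounds). Tff3, a peptide that protects the mucosa, was at 1931 ± 237 against 0.222 ± 0.297 CPM, and the mucin Muc2 at 526 ± 81 against 0.277 ± 0.293 CPM. The 2 exceptions were Ccn3, a matricellular protein, and Ramp1, a receptor partner for calcitonin gene-related peptide, which was at 121 ± 6.73 CPM in brain and 24.9 ± 6.92 CPM in small intestine. The enteroendocrine list split evenly, with 5 genes higher in small intestine, 5 in brain and 1 not called. Over all genes tested, the shares were 27.3% and 29.4%. Several gut hormones are also known as brain peptides. Gip, the glucose-dependent insulinotropic peptide, was at 194 ± 33.4 CPM in small intestine with no count in brain, at least 954-fold higher. Cck, cholecystokinin, was present in both, at 71.7, 102 and 128 CPM in small intestine and 230, 242 and 270 CPM in brain. The groups of Cck did not overlap, and brain was higher (−1.31, SE 0.09, adjusted p = 4.7e-10). Sst, somatostatin, stood close to the 2-fold line (119 ± 22.5 against 240 ± 19.9 CPM, −1.03, SE 0.09). It lost the call without animal 2574 (−0.99) or 2627 (−0.97). The same held without animals 2627 and 2630 (−0.96) and in animals 2572 to 2574 alone (−0.86). Chgb, a granin of secretory granules, was not called, at 275 ± 39.7 CPM in small intestine and 351 ± 150 CPM in brain.

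Dividing cells were a feature of the small intestine. Of 14 tested crypt and proliferation genes, 12 were higher there and 1 in brain, with a median of 4.28. Mki67, the Ki-67 antigen of cycling cells, stood at 141 ± 18.4 against 0.499 ± 0.445 CPM, and Top2a, the topoisomerase of dividing cells, at 190 ± 28 against 1.49 ± 1.1 CPM. Olfm4, made by intestinal stem cells, was at 334 ± 67.5 against 0.767 ± 0.431 CPM. The stem cell receptor Lgr5 differed much less (16.9 ± 3.44 against 7.33 ± 2.1 CPM; 1.20, SE 0.18). It fell below the 2-fold line with library totals alone (0.88), in males alone (0.93) and in animals 2572 to 2574 alone (0.91).

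Immune genes were also higher in small intestine. All 14 tested B, plasma and T cell markers were higher there, with a median of 8.27 (6.43 with bounds). Igha, the heavy chain of the secreted antibody IgA, was the most abundant immune transcript named, at 3446, 6662 and 9976 CPM in small intestine and 0.338, 1.42 and 3.42 CPM in brain. Pigr, the receptor that carries IgA across the epithelium and a gene picked with its values known, was at 4404 ± 495 against 0.891 ± 0.576 CPM. The killer-cell protease Gzma was at 299 ± 42.2 CPM with 1 count in brain. Of 16 antigen presentation and macrophage genes, 11 were higher in small intestine, none in brain and 5 were not called. The class II genes H2-Aa (510 ± 96.1 against 9.48 ± 4.01 CPM) and Cd74 (1174 ± 263 against 15.5 ± 9.19 CPM) were among the 11. Macrophage genes that microglia share did not move one way. Aif1, an actin-binding protein of both, was higher in small intestine (17.8 ± 1.56 against 5.91 ± 2.07 CPM), and Trem2, a lipid-sensing receptor, in brain. Csf1r, the receptor that both need to survive, was not called, at 52.7 ± 9.9 against 46.8 ± 3.68 CPM (0.16, SE 0.11), nor was the complement gene C1qb, at 93.8 ± 12.2 against 75.3 ± 4.96 CPM.

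The muscle wall contributed 11 of 14 tested smooth muscle and interstitial cell genes as higher in small intestine, among them Actg2, the enteric smooth muscle actin (200 ± 54.2 against 0.529 ± 0.649 CPM), and Myh11, its myosin (292 ± 63.7 against 11.1 ± 3.82 CPM). Kit, the receptor that marks pacemaker cells of the gut but also many others, was not called (10.8 ± 4.78 against 9.66 ± 2.17 CPM). Of 12 tested enteric neuron and glia markers, 2 were higher in small intestine and 9 in brain. The 2 were Hand2, a factor of enteric neuron development that had no count in brain (9.38 ± 3.19 CPM), and Vip, the relaxant gut peptide (25.1 ± 12.8 against 6 ± 2.26 CPM; 1.97, SE 0.22). Prph, peripherin, a filament of peripheral neurons, was not called (4.79 ± 1.25 against 5.08 ± 2.46 CPM). In liver, Vip and Prph were at 0.607 and 0.787 CPM.

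Genes known to vary along the intestine were read for the segment, which the labels do not give. Of 10 proximal genes, 9 were higher than in brain, with Gata4, a factor of duodenum and jejunum, at 331 ± 29.1 CPM and Adh6a at 906 ± 133 CPM with no count in brain (at least 4461-fold higher). Pdx1, a duodenal and pancreatic factor, was at 154 ± 11.6 CPM. Of 12 genes of the distal intestine and colon, 5 passed the filter on low counts. All 5 were higher in small intestine than in brain. Without animals 2627 and 2630, their means in small intestine were 342 CPM for Slc26a3, 200 CPM for Slc51a and 93.6 CPM for Slc51b. Guca2a was at 56 CPM and Pyy at 17.3 CPM. A comparison with brain does not give the segment, which was not tested. The ileal markers Fabp6 and Slc10a2 were low: Fabp6, the ileal bile acid binding protein, at 0.13 ± 0.222 CPM, and Slc10a2, the bile acid uptake carrier, at 3.4 ± 1.96 CPM, and neither passed that filter.

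**Figure D3:**
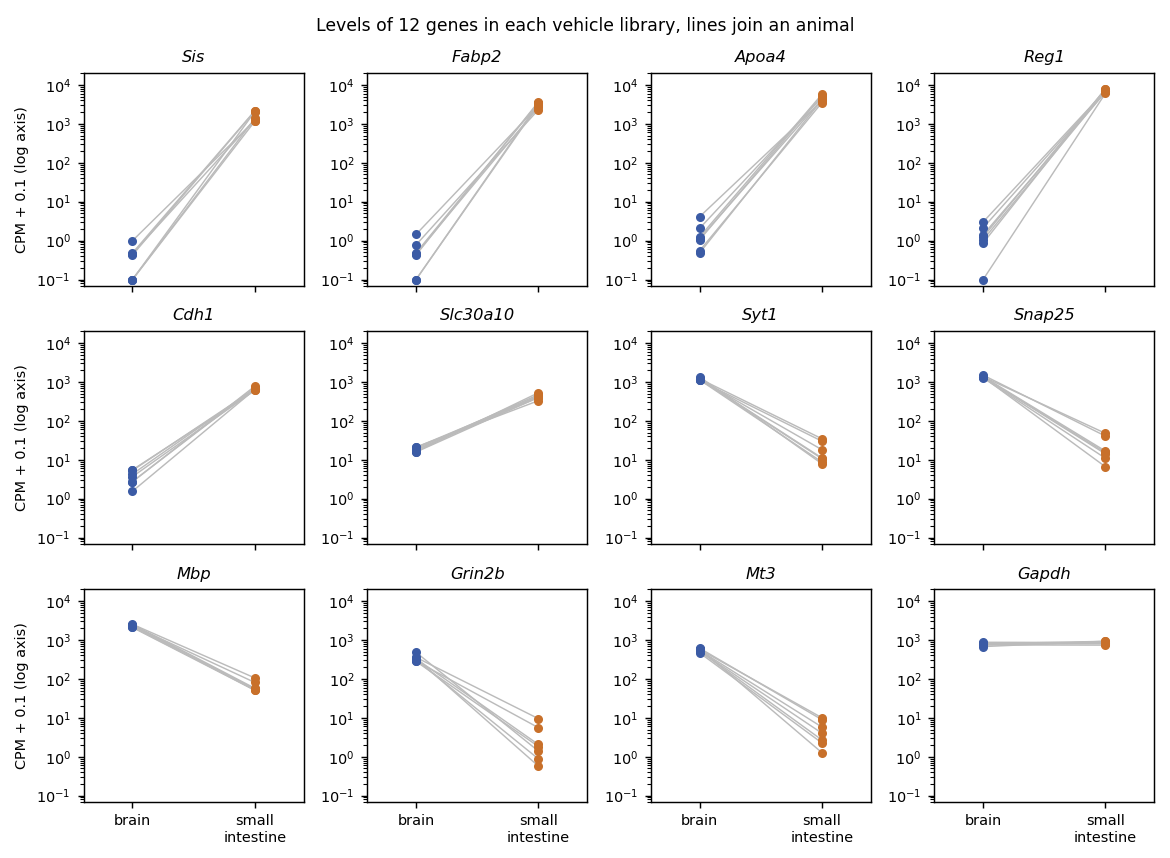
Levels of 12 genes in each of the 14 vehicle libraries (vertical log axis, CPM with 0.1 added), brain in blue and small intestine in orange, with a line for each animal. Intestinal genes (Sis, Fabp2, Apoa4, Reg1, Cdh1, Slc30a10) and brain genes (Syt1, Snap25, Mbp, Grin2b, Mt3) do not overlap between tissues, Gapdh does, and the 2 upper intestinal points for Grin2b are animals 2627 and 2630.

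In brain, markers of neurons and genes of synapses and channels were higher. All 19 tested neuron markers were higher in brain, with a median of −6.09. Ina, Nefl and Nefm, subunits of neurofilaments, were at 584 ± 26.9, 461 ± 39.1 and 377 ± 35.1 CPM in brain and at 5.36 ± 5.11, 4.54 ± 4.03 and 3.9 ± 3.91 CPM in small intestine. Their differences of −6.83, −6.72 and −6.65 were −7.89, −7.63 and −7.78 without animals 2627 and 2630. Stmn2, a microtubule regulator of growing axons, was at 560 ± 16.9 against 15.1 ± 4.57 CPM. The difference was smallest for Nrgn, neurogranin, which binds calmodulin at synapses (−4.74, SE 0.14).

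All 25 tested genes of synaptic vesicle release were higher in brain, with a median of −5.78. Snap25, a membrane protein of the fusion machinery, was at 1268, 1327 and 1495 CPM in brain and 6.49, 15.3 and 47.6 CPM in small intestine. The tissues did not overlap, the 2 highest intestinal values were those of animals 2630 and 2627 (47.6 and 40.5 CPM), and the difference was −6.09 (SE 0.24, adjusted p = 3.8e-13), or −6.70 without those 2 animals. Syt1, the calcium sensor of release, was at 1187 ± 81.4 against 17.2 ± 10.9 CPM. Slc32a1, which fills vesicles with GABA and glycine, had the widest difference of the list, at 106, 117 and 132 CPM in brain and 0, 0 and 1.57 CPM in small intestine (−8.11, SE 0.25), which was −8.81 without animal 2630 and −9.79 (SE 0.27) without animals 2627 and 2630. Dnm1, the dynamin of vesicle retrieval, differed least (203 ± 17 against 74 ± 11.2 CPM).

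Receptors and channels of neurons were uniform too. All 24 tested glutamate and GABA receptor genes were higher in brain, with a median of −6.09 that widened to −6.90 without animals 2627 and 2630. Grin2b, an NMDA receptor subunit, stood at 342 ± 67.9 against 3.02 ± 3.27 CPM and Gria2, an AMPA receptor subunit, at 296 ± 29.8 against 3.73 ± 3.52 CPM. Without those 2 animals, Grin2b went from −6.87 to −8.04 and Gria2 from −6.35 to −7.46. All 24 tested voltage-gated channel genes were higher in brain, with a median of −5.31. They ran from Scn1a, a sodium channel (270 ± 7.55 against 2.59 ± 2.59 CPM; −6.70, and −7.78 without animals 2627 and 2630), to the calcium channel Cacna1a (176 ± 34.5 against 37.9 ± 8.61 CPM; −2.20, SE 0.13). Of 20 postsynaptic density genes, 18 were higher in brain; Camk2a, the kinase of synaptic plasticity, was at 274 ± 38 against 5.27 ± 3.31 CPM (−5.73, and −6.34 without those animals), while the scaffold genes Shank2 (66.3 ± 7.2 against 35.7 ± 9.27 CPM) and Homer1 (41.5 ± 4.92 against 33.7 ± 3.55 CPM) were not called.

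Of 20 tested neuropeptide genes, 18 were higher in brain and 1, Vip, in small intestine. Hypothalamic peptides were prominent in the homogenate: Pmch, melanin-concentrating hormone, at 278 ± 44.3 CPM, Oxt, oxytocin, at 231 ± 45.4 CPM, Hcrt, the hypocretin of wakefulness, at 167 ± 17.9 CPM and Avp, vasopressin, at 158 ± 29.5 CPM. Without animals 2627 and 2630, the differences widened from −6.89 to −8.61 for Pmch, −6.74 to −8.00 for Oxt, −6.95 to −8.45 for Hcrt and −6.42 to −7.30 for Avp. Of 24 genes listed for brain regions, 14 passed the filter on low counts, 12 of them higher in brain. Calb1 and Pvalb, calcium-binding proteins of several kinds of neurons, were at 174 ± 20.7 and 165 ± 21.4 CPM in brain; without those animals Calb1 went from −7.08 to −8.55. Other region genes, chosen after their values were seen, were low or near 0 in the same libraries: Neurod6, of cortical neurons, at 3.67 ± 1.55 CPM, Drd1, the dopamine receptor of the striatum, at 4.26 ± 1.22 CPM, and Gabra6, of cerebellar granule cells, at 0.0483 ± 0.128 CPM. The midbrain genes Th, which makes the dopamine precursor, and Slc6a3, the dopamine carrier, were at 51.1 ± 12.8 and 36 ± 13.8 CPM. Without animals 2627 and 2630, the means in brain of other genes on the region list were 32.9 CPM for Ppp1r1b and 22.5 CPM for Rgs9. Drd2 was at 7.81 CPM in brain. Ppp1r1b was higher in small intestine, at 195 CPM without those animals (2.57). The labels name the tissue as brain and give no region, and which regions were included was not tested. Gh and Prl, the pituitary hormones, had the largest differences for brain (−11.76 and −11.47), and rested on the pituitary transcripts described above: Gh ranged from 40.7 to 9796 CPM in brain with a median of 107 CPM. Without animal 2572 the differences were −9.20 for Gh and −7.01 for Prl, and without animals 2627 and 2630 −12.77 and −12.75.

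Monoamine genes lay on both sides, with 5 of 14 tested genes higher in small intestine, 6 in brain and 3 not called. The shares over all genes tested were 27.3% for small intestine and 29.4% for brain. Higher in brain were Slc6a3 (−6.04, SE 0.26, and −6.81 without animals 2627 and 2630), Slc18a2, the vesicle carrier of monoamines (29.3 ± 8.28 against 1.49 ± 1.19 CPM), and Htr2c, a serotonin receptor (57.4 ± 10.2 against 0.672 ± 0.902 CPM; −6.28, and −7.23 without those animals). Higher in small intestine were Tph1, the serotonin-making enzyme outside the brain (32.8 ± 8.24 against 0.285 ± 0.201 CPM), Ddc, which makes dopamine and serotonin from their precursors (412 ± 66.2 against 62.4 ± 10.5 CPM), Slc6a4, the serotonin carrier (46.9 ± 10.3 against 1.78 ± 1.85 CPM), and Maoa, which breaks monoamines down (373 ± 64.4 against 42.5 ± 1.83 CPM). Maob, another degrading enzyme, was not called.

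Of 20 tested oligodendrocyte and myelin markers, 16 were higher in brain, with a median of −6.44. Mbp, myelin basic protein, was at 2330 ± 161 against 64.9 ± 20.9 CPM. Pdgfra, a receptor of oligodendrocyte precursors and of gut fibroblasts, was not called (39.4 ± 9.09 in small intestine and 24.1 ± 2.91 CPM in brain). Of 20 astrocyte markers, 18 were higher in brain, with a median of −4.13. Gfap, the astrocyte filament, was at 145 ± 27.3 against 1.41 ± 0.955 CPM and Slc1a2, the glutamate carrier, at 1301 ± 26.9 against 18.7 ± 12.2 CPM. Apoe, the lipid carrier of astrocytes and liver, was high in both (2326 ± 79.4 against 854 ± 105 CPM; −1.45, SE 0.07). The member higher in small intestine was Aldh1l1, a folate enzyme (117 ± 21 against 56.2 ± 6.87 CPM). Its difference fell under the 2-fold line without animal 2572 (0.95), with library totals alone (0.74) and in animals 2627 to 2630 alone (0.78). Microglia were the least separated glia: 5 of 13 markers were higher in brain, 2 in small intestine and 6 not called. Over all genes tested, 29.4% were higher in brain and 27.3% in small intestine. Trem2 was at 19.5 ± 2.57 against 0.817 ± 0.554 CPM and P2ry12, the purine receptor of resting microglia, at 17.4 ± 1.86 against 2.61 ± 1.36 CPM.

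**Figure D4:**
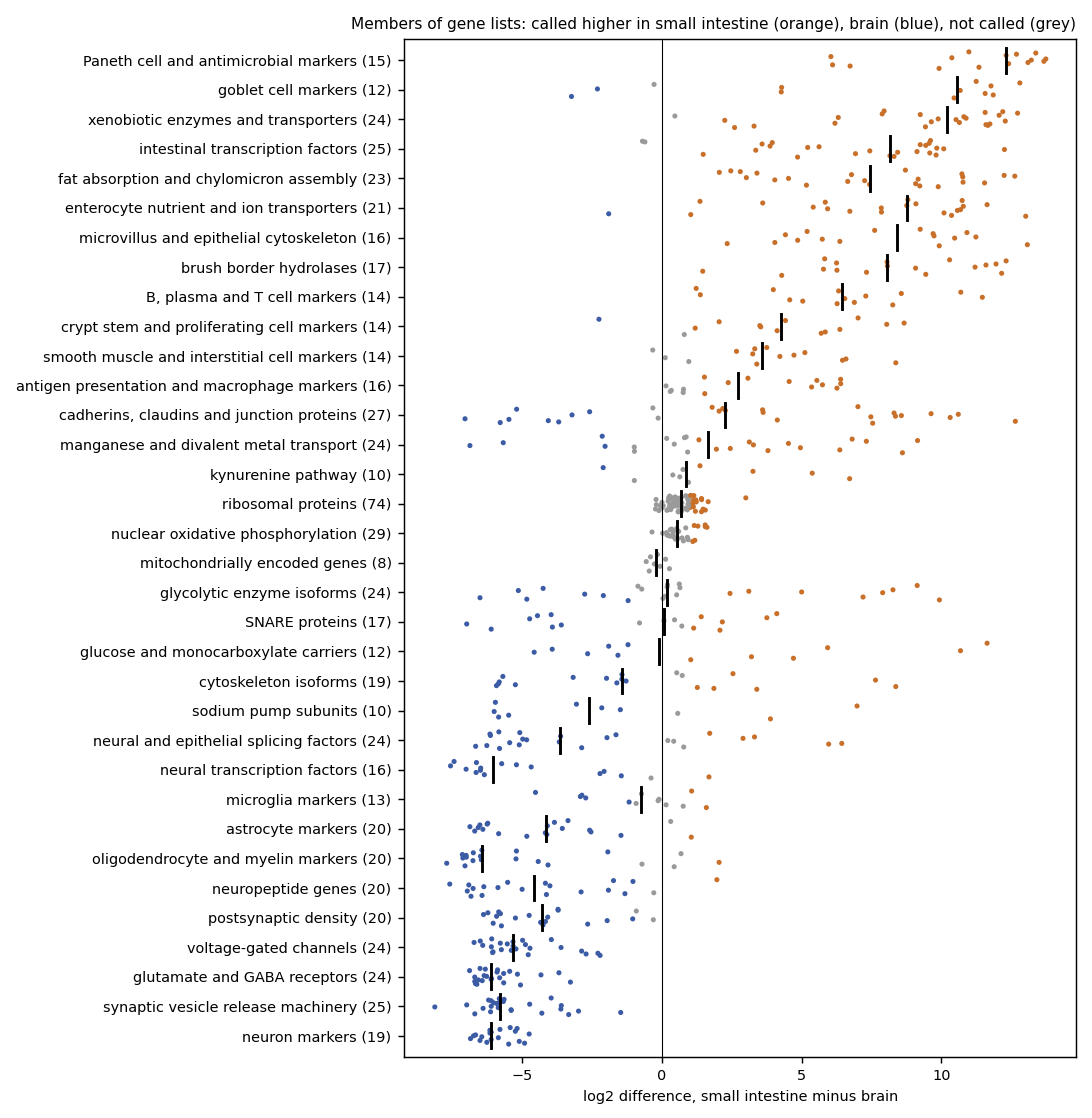
Log2 difference, small intestine minus brain (horizontal axis), of each tested member of 34 gene lists (rows, with the number tested), in orange where called higher in small intestine, in blue where called higher in brain and in grey where not called; the black bar is the median, and genes with no count in one tissue are set to their bound. Epithelial lists lie to the right and reach past 10, neuronal lists gather between −4 and −7, and the family lists in the middle spread to both sides.

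Gene families held members for each tissue, as did all genes tested, with 27.3% called for small intestine and 29.4% for brain. Among RNA-binding and splicing factors, 16 of 24 tested genes were higher in brain and 5 in small intestine. Elavl3, a neuronal RNA-binding protein, was at 451 ± 27.1 against 6.22 ± 5.48 CPM (−6.25, and −7.18 without animals 2627 and 2630) and Rbfox3, the neuronal nuclear antigen NeuN, at 144 ± 8.37 against 2.04 ± 1.37 CPM, while the widely made Elavl1 was not called (54.7 ± 4.16 in brain and 94.3 ± 7.97 CPM in small intestine). Ptbp2, the neuronal polypyrimidine tract binding protein, was higher in brain (83.9 ± 10 against 21.6 ± 3.51 CPM), and its counterpart Ptbp1 in small intestine (149 ± 18.6 against 20 ± 4.5 CPM). Esrp1, the epithelial splicing regulator, was at 87.4 ± 8.38 against 1.31 ± 2.02 CPM, and Rest, the repressor of neuronal genes, at 38.3 ± 5.5 against 11.8 ± 3.58 CPM (1.72, SE 0.14).

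Enzymes of glycolysis also lay on both sides: of 24 tested genes of the glycolytic and related list, 8 were higher in small intestine, 7 in brain and 9 not called, with a median of 0.20. These shares were near the 27.3% and 29.4% over all genes tested. Aldolase C, Aldoc, was higher in brain (540 ± 19.6 against 19.8 ± 8.46 CPM). Enolase 2, Eno2, was a brain gene (533 ± 21.9 against 6.07 ± 3.68 CPM), while Eno1 was level (253 ± 41.3 in small intestine and 244 ± 22.8 CPM in brain; 0.04, SE 0.09). The lactate dehydrogenases crossed, with Ldhb at 521 ± 51.7 CPM in brain and 15.2 ± 4.39 CPM in small intestine, and Ldha at 150 ± 12.8 and 1313 ± 214 CPM. Hk1, the hexokinase of brain, was at 141 ± 6.98 against 21 ± 5.23 CPM, and Hkdc1, a related hexokinase, at 0.746 ± 0.581 CPM in brain and 180 ± 24.4 CPM in small intestine. Khk, which starts fructose breakdown, was at 564 ± 133 against 17.2 ± 4.28 CPM, and Pklr, a pyruvate kinase of liver, at 243 ± 27.9 against 0.374 ± 0.415 CPM. The pyruvate kinase Pkm and Gapdh did not pass the call, at 1386 ± 252 and 851 ± 68.8 CPM in small intestine against 1188 ± 85.9 and 782 ± 66.6 CPM in brain.

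Sugar and monocarboxylate carriers split 6 and 6 among 12 tested. Slc2a3, the neuronal glucose carrier, was higher in brain (70.7 ± 4.42 against 4.63 ± 1.12 CPM), as was Slc2a1 of the blood-brain barrier and glia (130 ± 16.3 against 20.7 ± 4.13 CPM). Slc2a2, the basolateral glucose carrier, and Slc2a5, the fructose carrier, were higher in small intestine (616 ± 91.2 against 0.319 ± 0.534 CPM and 219 ± 44.4 against 3.44 ± 0.709 CPM). Of 10 tested subunits of the sodium pump, which drives these and most other carriers, 7 were higher in brain, 2 in small intestine and 1 was not called. The beta subunit Atp1b1 was not called (2044 ± 286 against 1364 ± 61.9 CPM; 0.57, SE 0.08), while Atp1b2 and Atp1b3 were higher in brain, with differences of −5.99 (−6.60 without animals 2627 and 2630) and −1.48.

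The fatty acid binding family split 4 and 4. Fabp1 and Fabp2 of enterocytes were at 2758 ± 416 and 3074 ± 471 CPM in small intestine, and Fabp3, Fabp5 and Fabp7 of brain at 79.6 ± 6.25, 167 ± 16.6 and 89.1 ± 7.96 CPM in brain against 1.5 ± 0.755, 12 ± 4.73 and 2.29 ± 1.16 CPM in small intestine. Membrane fusion proteins also lay on both sides, with 7 of 17 tested SNARE genes higher in brain, 6 in small intestine and 4 not called. The shares over all genes tested were 29.4% and 27.3%. Snap25 and Vamp2 were brain genes (Vamp2, 840 ± 41.8 against 54.8 ± 9.71 CPM), and Snap23, the widely made relative of Snap25, and Vamp8 were higher in small intestine (76.6 ± 5.21 against 18 ± 3.73 CPM and 291 ± 32.9 against 16.7 ± 3.06 CPM). Stx3 of the apical epithelial membrane (110 ± 19.1 against 24.4 ± 4.82 CPM) and Stxbp2, a partner of syntaxins (124 ± 15.2 against 9.11 ± 2.1 CPM), were also higher in small intestine. Of 27 tested cadherin, claudin and junction genes, 17 were higher in small intestine and 8 in brain. Cdh1, E-cadherin, was at 669 ± 58.3 against 3.59 ± 1.45 CPM and Cdh17, the liver-intestine cadherin, at 1011 ± 99.5 against 0.104 ± 0.275 CPM, while Cdh2, N-cadherin, was at 60.2 ± 9.43 CPM in brain and 3.6 ± 1.75 CPM in small intestine. Claudins also divided: Cldn7 and Cldn15 of the gut epithelium were at 415 ± 55.4 and 409 ± 53.9 CPM in small intestine, and Cldn11 of myelin and Cldn5 of brain vessels at 372 ± 24.4 and 30.7 ± 6.06 CPM in brain; the difference of Cldn11, −7.03, was −8.14 without animals 2627 and 2630. Epcam, the epithelial adhesion molecule, was at 1645 ± 185 CPM in small intestine and reached 44.3 CPM in brain of animal 2572, the library with pituitary transcripts, against 0.474 to 2.03 CPM in the other 6 brains; its difference was 8.31, and 10.50 without that animal.

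**Figure D5:**
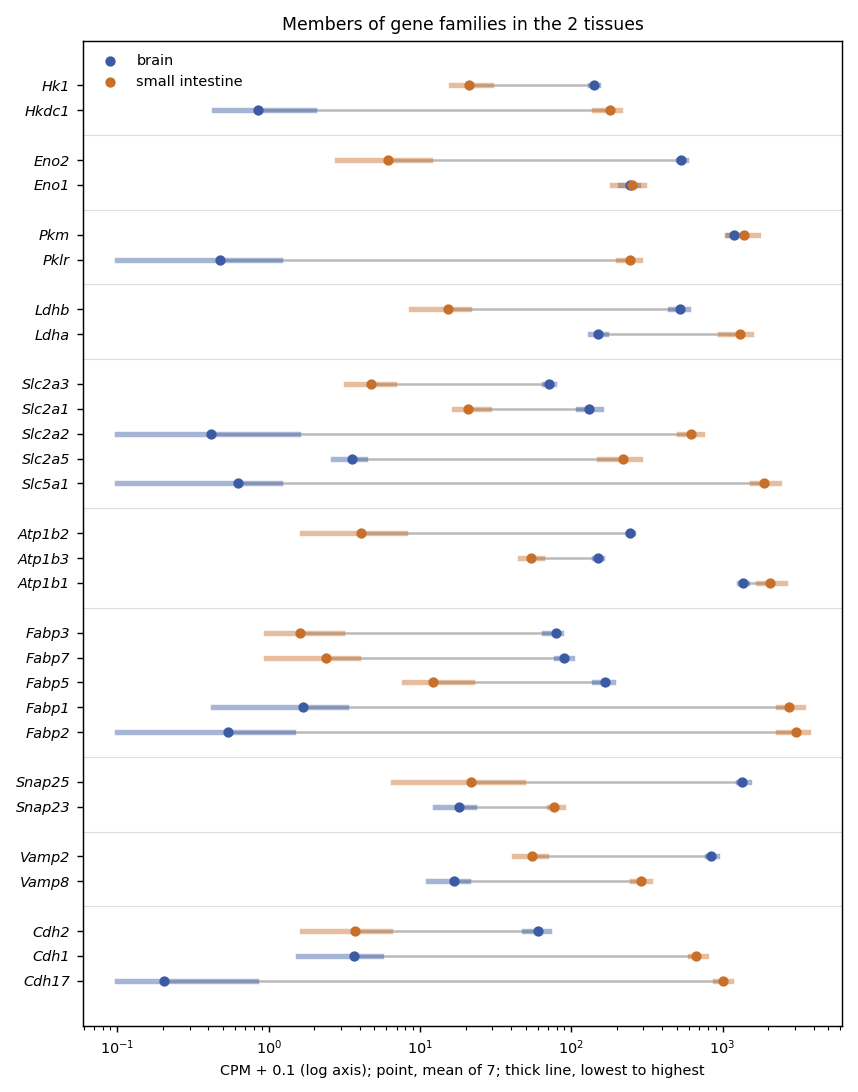
Mean CPM of members of gene families (rows) in vehicle brain (blue) and small intestine (orange), on a log axis with 0.1 added; points are means of 7 libraries and thick lines run from the lowest to the highest library. Within most families one member lies to the right for brain and another for small intestine, such as Ldhb with Ldha and Cdh2 with Cdh1, while Eno1 and Pkm overlap.

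Genes that carry manganese and other divalent metals were examined because manganese is the agent of the study. Of 24 tested genes, 13 were higher in small intestine, 4 in brain and 7 not called, with a median of 1.64. Over all genes tested, 27.3% were higher in small intestine and 29.4% in brain. Slc30a10, the exporter that clears manganese from cells, was at 330, 428 and 526 CPM in small intestine and 15.7, 17.9 and 21.1 CPM in brain. Every intestine lay above every brain, and the difference was 4.53 (SE 0.11, adjusted p = 1.3e-15). Slc39a14, a manganese and zinc importer, was at 300 ± 29.3 against 34.2 ± 2.93 CPM (3.13, SE 0.09), and Slc39a8, its relative, at 11.5 ± 1.73 against 4.51 ± 1.67 CPM (1.33, SE 0.20). Slc11a2, the divalent metal importer DMT1 of the apical membrane, was at 155 to 386 CPM in small intestine, median 249 CPM, and 19.7 to 32 CPM in brain, median 24 CPM (3.28, SE 0.15). Slc40a1, the iron exporter ferroportin, differed by 6.81 (630 ± 93.5 against 5.62 ± 1.38 CPM), Heph, the oxidase that works beside it, by 4.96, and Cybrd1, the apical ferric reductase, by 6.37. Zinc importers of the intestine were high there, with Slc39a4 at 309 ± 75.7 against 1.93 ± 0.434 CPM and Slc39a5 at 183 ± 19.2 against 0.312 ± 0.566 CPM. Fth1, the ferritin heavy chain, was among the 10 highest levels of the small intestine (8848 ± 1051 against 2272 ± 170 CPM; 1.96, SE 0.09), and Ftl1, the light chain, was at 1058 ± 57.1 against 194 ± 19.1 CPM. Arg2, an arginase that uses manganese, was at 954 ± 102 against 2.43 ± 0.954 CPM.

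The 4 metal genes higher in brain were Mt3, the brain metallothionein (548 ± 52 against 4.91 ± 3.4 CPM; −6.85, SE 0.20), Mt2, a second metallothionein (329 ± 46.4 against 81.4 ± 17.1 CPM), Slc30a3, which fills synaptic vesicles with zinc (12 ± 1.74 against 0.191 ± 0.241 CPM, with 3 counts over the intestinal libraries), and Trf, transferrin (790 ± 66 against 186 ± 55.8 CPM). Not called were Mt1, Sod2, Tfrc, Slc30a1, and 3 genes of Golgi or endoplasmic reticulum pumps and carriers, Atp2c1, Tmem165 and Atp13a1, with differences from −0.98 for Mt1 to 0.93 for Atp13a1. Mt1 lay just inside the 2-fold line (460 ± 56.3 in small intestine and 904 ± 75.6 CPM in brain), with an adjusted p of 5.7e-09.

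The kynurenine pathway breaks down tryptophan and is named in the title of the series. Of 18 genes listed for its enzymes and for amino acid carriers, 10 passed the filter on low counts. Of these, 4 were higher in small intestine, 1 in brain and 5 not called, against 27.3% and 29.4% over all genes tested. The gene higher in brain and 1 of the 4 were carriers. Ido1, the first enzyme of the pathway outside the liver, was at 21.2, 49.5 and 56 CPM in small intestine and 0, 0.381 and 0.76 CPM in brain. The groups did not overlap, and the difference was 6.72 (SE 0.24, adjusted p = 1e-13). Kynu, which cleaves kynurenines, gave 3 counts over the brain libraries and 8.95 ± 3.5 CPM in small intestine, against 228 CPM in liver, and Nadsyn1, the last step to NAD, was at 38.6 ± 4.04 against 3.91 ± 1.51 CPM. Slc7a8, an amino acid carrier, was higher in small intestine (1.37, SE 0.10), and Slc7a5, the carrier of kynurenine and large amino acids into brain, was higher in brain (37.2 ± 3.3 against 8.85 ± 2.29 CPM; −2.09, SE 0.14). Kyat1, Kyat3, Gcdh, Got2 and Slc3a2 were not called. The other 8 genes did not pass the filter, among them Tdo2, the liver enzyme of the first step (10.3 ± 4.56 CPM in small intestine, 0.442 ± 0.345 CPM in brain and 1586 CPM in liver), Kmo (6.56 ± 2.63 against 1.39 ± 1.01 CPM) and Haao (3.89 ± 1.8 against 0.843 ± 0.546 CPM).

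Genes of the machinery that all cells share had small median differences. Of 74 tested ribosomal protein genes, 18 were higher in small intestine and none in brain, with a median of 0.68, and of 29 nuclear genes of oxidative phosphorylation 7 and none, with a median of 0.54. None of 8 mitochondrially encoded genes was called (median −0.21, with 6 below 0). The shares called for small intestine among ribosomal, oxidative phosphorylation and common reference genes were near the 27.3% over all genes tested. None of these genes was called for brain, against 29.4% over all genes tested. The small median differences depend on the scale, since TMM and library totals differ by about 0.32. Among 20 common reference genes, 6 were higher in small intestine. The 6 included B2m, the light chain of class I antigen presentation (1960 ± 266 against 79.1 ± 13.5 CPM; 4.63, SE 0.12), and Eef1a1, an elongation factor (324 ± 25.1 against 146 ± 30.4 CPM; 1.16), which fell to 0.85, under the 2-fold line, with library totals alone.

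Animals of one tissue resembled one another closely. On log2 levels, libraries of brain correlated with one another at 0.973 to 0.984 and those of small intestine at 0.962 to 0.981, and brain with small intestine at 0.143 to 0.242, all across genes, which are not independent replicates. Over 5565 genes with at least 20 CPM in both tissues, the median SD of log2 levels was 0.136 in brain and 0.171 in small intestine, and the SD was larger in small intestine for 3777 of them. Whether the tissue difference was unlike in females and males was tested by the sex by tissue term: 0 of 13636 genes (0%) passed an adjusted p below 0.05, with 552 at an unadjusted p below 0.05. DESeq2 also gave 0, with 184 unadjusted. The genes with the smallest p were Xist, Arntl and Prl.

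The same contrast was then fitted in the 7 manganese-treated animals that had both tissues, none of which entered the vehicle comparison. Of 13479 genes tested there, 3466 (25.7%) were higher in small intestine and 4108 (30.5%) higher in brain. Of 7424 vehicle calls that were tested in both, 7388 had the same direction, 7029 were also called, and none of the 36 with the other direction was called. For 337 genes chosen by a vehicle difference of at least 8, the median was 9.90 in vehicle and 6.72 in manganese-treated animals; since the choice used the vehicle values, their median is a description only. Fabp2 was at 147 and 105 CPM in the brains of manganese-treated animals 2576 and 2600, and at 1.02 to 9.62 CPM in the other 5, against 0 to 1.34 CPM in vehicle brain. The files of those 2 brains carry sample numbers among or next to those of the small intestine libraries, unlike the files of the vehicle brains. The part of those 2 libraries in the lower median was not tested. For 978 genes chosen by a vehicle difference of −5 or beyond, the medians were −5.97 and −5.87.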

How the data were processed

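The authors deposited raw read counts per gene, in 1 file for each library. The submitters' processing notes list HTSeq 0.2.0 and STAR 2.7.10b beside DESeq2 1.12.3, R 4.2.2 and, for read quality, FastQC 0.12.0, with the mouse build GRCm39. Each file held 55416 genes and 97 other entries, which entered neither the totals nor a test. Reads mapped to several places, 25.6% to 31.7% of the records, were not counted, so near-identical genes are uncertain, and 8 genes listed at 0 in all 14 libraries, such as Tubb3 and Sox2, were not read as absent. Removal of duplicate reads is not stated in the labels, and intervals cover counting error only. Of the identifiers 52083 matched a symbol of a GRCm38 annotation.

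Counts were tested with edgeR 4.0.16 in R 4.3.3 (glmQLFit and glmQLFTest, TMM, filterByExpr with a minimum count of 10 and total of 15, animal as block, Benjamini-Hochberg adjustment, two-sided). SE is the log2 difference over the root of F. All adjusted p-values are from these fits. The tissues of a number come from 1 animal, by the number that starts each title; deviations of the 2 tissues from their means, over 5565 genes, correlated at −0.167 to 0.374 (median 0.109). DESeq2 1.42.0 was an alternative. The scripts were tested on simulated data. No pair of libraries was a duplicate: the lowest chi-square per gene was 1.47. A fold against 0 counts used 3 counts over the group, and ratios with 1 to 3 counts have exact 95% intervals.

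Genes named were the 12 largest differences each way with at least 50 CPM, the 10 highest levels per tissue, up to 5 called and 3 nearest-to-0 members per list, all tested members of the family, metal and kynurenine lists, and the 3 genes of smallest p for sex by tissue. Other genes named, including further list members and genes that failed the filter, were chosen after their values were seen. The members and lists were chosen with earlier results of these data known, and a list's counts stand beside those over all genes. Some genes are not reported here.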

Additional observations from a re-analysis of the deposited data

Results flagged for a closer look

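In each tissue, a library whose gap to the nearest other library, over the range of the 7, passed Dixon's 95% critical value was marked for the genes named in the text that had a mean of at least 5 CPM. Of 271 groups of 7 libraries, 26 were marked. The critical value marks about 1 in 20 groups only where values are independent and normally distributed. Genes of 1 library are not independent, so the count cannot be read against that rate.

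In brain of animal 2572, the library with pituitary transcripts, Gh (9796 CPM), Prl (7746 CPM), Chgb (686 CPM), Epcam (44.3 CPM), Cd74 (34.7 CPM), Eef1a1 (211 CPM) and Ptbp1 (29.4 CPM) stood above the other 6 brains. In brain of animal 2573, Camk2a (353 CPM) and Grin2b (482 CPM) were high and Fabp3 (66.4 CPM) low. Among the other brains, P2ry12 was low in animal 2627 (13.8 CPM), Slc39a14 low in animal 2629 (28.4 CPM) and Sst low in animal 2630 (198.6 CPM). Rest (18.8 CPM) was high in brain of animal 2628, and Pmch (370.5 CPM) and Prph (10.2 CPM) in brain of animal 2629.

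In small intestine of animal 2628, Apoe (1071 CPM), Cyp3a11 (1218 CPM), Fabp5 (21.8 CPM), Sox9 (48.9 CPM) and Vip (50.8 CPM) stood above the other 6. B2m (2529 CPM) and Tph1 (49.8 CPM) were high in small intestine of animal 2573, Gstm1 (446.5 CPM) in that of animal 2572, and Gzma (385 CPM) and Snap23 (87.5 CPM) in that of animal 2630. The cause of these values was not tested.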

How the results depend on the processing

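The calls for small intestine numbered 5950 when no fold was required and 2288 when 4-fold was. The sex by tissue term passed for 37 genes without the filter on low counts. Leaving out 1 animal gave 3712 to 3774 calls for small intestine and 4010 to 4076 for brain, and 3460 to 3587 and 4073 to 4141 in manganese-treated animals. With sex as a covariate in place of the replicate block, the counts were 3726 and 4010, and 3455 and 4111 in manganese-treated animals; a fit with neither term was not run. DESeq2 gave 3636 and 4103. Of 150 named genes that were called, 0 turned direction under any alternative run. A call needs at least 2-fold, and library totals shifted the median log2 difference by −0.32, so this count says little about stability.

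Leaving out 1 animal moved the fold by over 1.5 times also for these genes with more than 3 counts in the lower tissue: Actg2 from 8.37 to 9.07 (log2) without 2574, Esrp1 from 5.97 to 6.97 without 2572, Tff3 from 12.80 to 13.40, S100g from 11.51 to 12.14 and Slc2a2 from 10.68 to 11.77 without 2629, Slc39a5 from 9.15 to 10.04, Hcrt from −6.95 to −7.67 and Pmch from −6.89 to −7.62 without 2630, and Htr2c from −6.28 to −7.17, Gh from −11.76 to −12.35 and Prl from −11.47 to −12.69 without 2627.

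Genes not called did turn. With library totals alone, which shifted the median by −0.32, the difference was −0.01 for C1qb, −0.16 for Csf1r, −0.27 for Eno1, −0.20 for Gapdh, −0.19 for Kit, −0.01 for Maob, −0.11 for Pkm and −0.14 for Sod2. In females alone it was −0.09 for Arntl and −0.04 for Eno1, and in males alone −0.04 for Kit and 0.03 for Prph. In animals 2572 to 2574 it was −0.10 for Csf1r, −0.65 for Kit and 0.16 for Prph, and in animals 2627 to 2630 −0.16 for Eno1 and −0.01 for Pkm. Without animals 2627 and 2630, an alternative chosen after seeing the data, Prph was at 0.04. Leaving out 1 animal gave −0.02 to 0.10 for Eno1, −0.02 to 0.29 for Kit and −0.21 to 0.11 for Prph. The cause was not tested. Depth limits genes at a few counts, whose ratios have wide intervals.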
